A study of Homo sapiens with 20 samples.

Results

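The genes described here are the 51 that were lower in *ALKBH5* knockout (A5-KO) cells than in wild-type (WT) cells at each of 2 stages of human pancreatic differentiation, out of 60623 genes in the tables. The first stage is the pancreatic progenitor (PP), and the second is the human islet-like organoid (hILO). A gene was chosen when (A5-KO mean + 1)/(WT mean + 1) was at or below the inverse of 1.5, both A5-KO values were below both WT values and the WT mean was at least 2, in PPs before actinomycin D (Act D) in CPM, read counts scaled to the library total, and again in hILOs in TPM, which also divides by transcript length. Of 11255 genes with a WT mean of at least 2 at both stages, 59 met these conditions, and 8 of them, which are named genes or members of families such as ZNF and PCDH, were set aside by name. The differences at 0 h and in hILOs chose the genes and are therefore given as a description, without a test.

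All 20 libraries came from the MEL1 human embryonic stem cell line, an INS-GFP reporter line, either WT or carrying the A5-KO genotype made with CRISPR-Cpf1 against the first exon. There were 2 hILO libraries for each genotype and 2 PP libraries for each genotype after 0, 1, 2 and 3 h of Act D at 1 μg per ml, with the 0 h samples labelled as controls. Each genotype rests on cells of a single label, A5-KO or WT, so a difference between the genotypes cannot be told apart from a difference between these cell populations. The medium of the final stage held an inhibitor of the TGF-β receptor in both genotypes. The paper calls the Act D libraries of a group biological replicates, but the labels do not say whether libraries of a group came from separate differentiations, and *p*-values measure the spread between these samples.

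ALKBH5 is a demethylase that removes the methyl group of N6-methyladenosine from mRNA, a mark read by proteins that influence mRNA decay, splicing and translation. PPs are multipotent cells that express PDX1 and NKX6-1, and hILOs hold the hormone-producing cells derived from them. Act D intercalates into DNA and blocks transcription, so levels after its addition reflect mostly RNA made beforehand. Because CPM is a share of each library, a stable transcript can rise in CPM under Act D while the total pool falls.

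*ALKBH5* itself was at 149 and 172 CPM (WT) against 19.1 and 18.8 CPM (A5-KO) in PPs at 0 h, and at 78.8 and 81.9 TPM in WT hILOs against 4.16 and 3.42 TPM in A5-KO hILOs. The 16 PP libraries held between 30516384 and 35206514 reads, whereas the read number behind the hILO TPM is unknown. All 8 progenitor markers reached a mean of 1 CPM in PPs, and all 8 endocrine markers reached a mean of 1 TPM in hILOs. The summed hepatocyte markers (8 genes, none at 0) moved with the genotype. They summed to between 1092 and 1141 CPM in WT PPs at 0 h against between 1898 and 1924 CPM in A5-KO PPs, and to between 19738 and 20091 TPM in WT and between 32139 and 32426 TPM in A5-KO hILOs. The 8 islet endocrine markers summed to between 34780 and 37064 TPM in WT and between 26659 and 27873 TPM in A5-KO hILOs. Of these 8, 6 were lower and 2 higher in A5-KO hILOs without overlap, against 37.2% and 24.4% of 18117 genes. In these bulk samples, fewer cells of a type and less RNA per cell cannot be told apart, and the part of cell composition in the differences below was not tested.

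At 0 h the fold of the 51 genes, WT over A5-KO after adding 1, ran from 1.504 to 5.31 with a median of 1.70, and in hILOs it started at 1.503 with a median of 2.03. The share of genes that met the conditions was 1.94% of 12485 in PPs, 9.64% of 15118 in hILOs and 0.524% of 11255 at both stages before the named exclusions. The change was larger in hILOs for 35 genes and larger in PPs for 16. A change of 2-fold or more was present at both stages in 5 genes, *GLUD2*, *INHA*, *ONECUT1*, *PAK3* and *GP2*. *PUF60* and *GLUD2* had the largest folds in PPs (5.31 and 5.27), and *THEM6* and *CA9* were among those with the largest in hILOs (5.91 and 5.22). The order of the genes by fold thus differed between the stages.

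**Figure D1:**
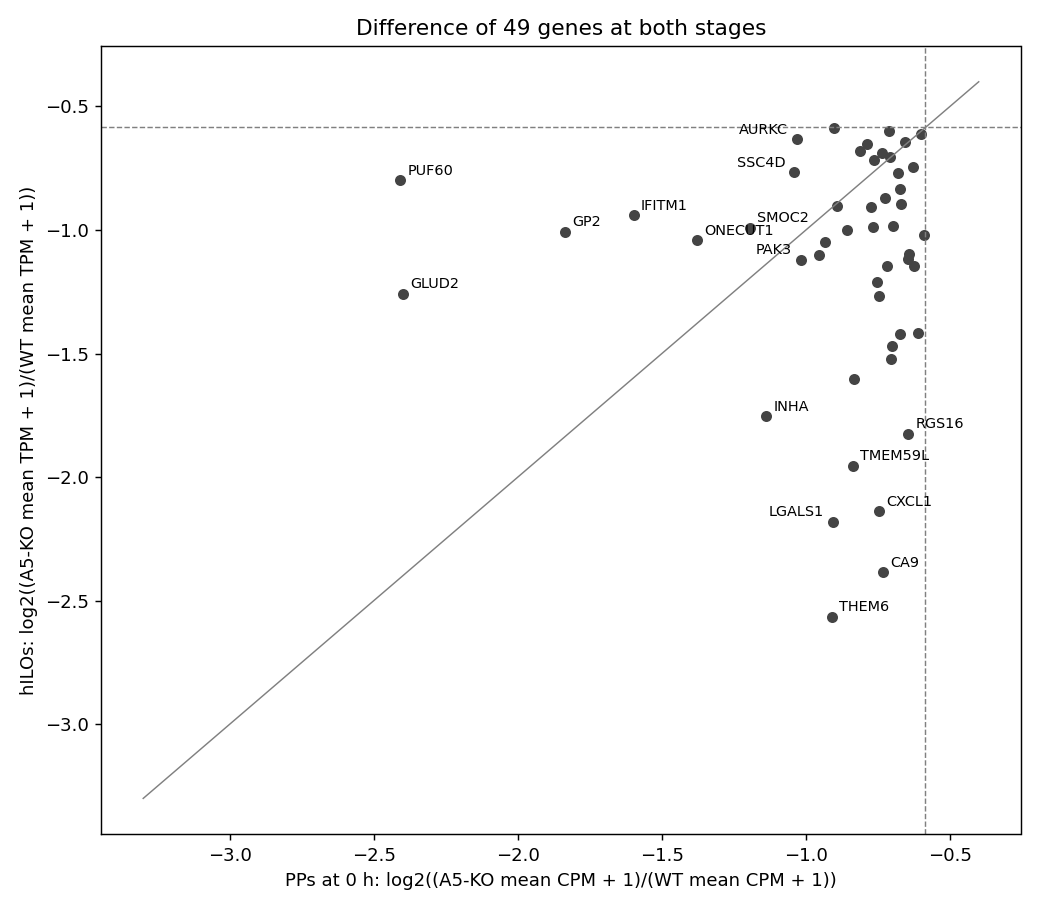
Each point is 1 of 49 genes, with the log2 ratio of A5-KO to WT means (each plus 1) in PPs at 0 h (CPM) on the x axis and in hILOs (TPM) on the y axis, from 2 libraries per genotype and stage. Dashed lines mark the 1.5-fold limit and the solid line marks equal change. *GLUD2* and *PUF60* lie far to the left, whereas *THEM6* and *CA9* lie far down.

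Near the limit, the genes just inside in PPs were *CXCR4* (1.504), *PRSS33* (1.516) and *FGF18* (1.529), and those just outside were *PPFIA3* (1.496), *DLK1* (1.486) and *NMB* (1.48). In hILOs, *MMP12* (1.503), *SEMA4B* (1.515) and *PRSS33* (1.527) were just inside, and *TCEA1P2* (1.45), *C2CD4B* (1.44) and *CLDN18* (1.44) just outside. The list holds 48 protein-coding genes, 2 long noncoding RNAs and 1 pseudogene. Their loci were spread over the genome, with 5 genes on chromosome 19 and at most 4 on any other chromosome. Only 2 neighbouring pairs lay within 200 kb of each other, *IFITM2* with *IFITM1* on chromosome 11 (643 bases apart) and *CHRDL1* with *PAK3* on chromosome X (148465 bases apart).

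The 12 PP libraries under Act D were not used to choose the genes and measure them again in the same cells and stage. The paper states that wells of a biological replicate came from a single batch, divided at random between treatments. The Act D libraries may therefore share cultures with the 0 h libraries that chose the genes, and cannot be taken as an independent repeat. Averaged over 1, 2 and 3 h, 21 of the 50 genes that could be tested were lower in A5-KO (limma on log2(CPM + 1), Benjamini-Hochberg adjusted *p* below 0.05 over 13462 genes and a change over 1.5-fold), against 4.63% of all genes tested. No gene of the list was higher, against 1.89% of all genes. At an unadjusted *p* below 0.05 limma placed 39 lower and 1 higher (*CA9*), against 4112 lower and 1572 higher of all 13462 genes. On whole reads, edgeR and DESeq2 each called 21 genes of the list lower and 0 higher. Over all 13462 genes, edgeR called 777 lower and 432 higher, and DESeq2 768 and 429. The median difference was −0.48 on the log2 scale for the list and −0.07 for all genes tested. Of the 51 genes, 14 had every A5-KO value under Act D below every WT value, against 3.08% of genes tested. Over all genes, 623 were lower and 255 higher, and 432 and 304 under median-of-ratios scaling.

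**Figure D2:**
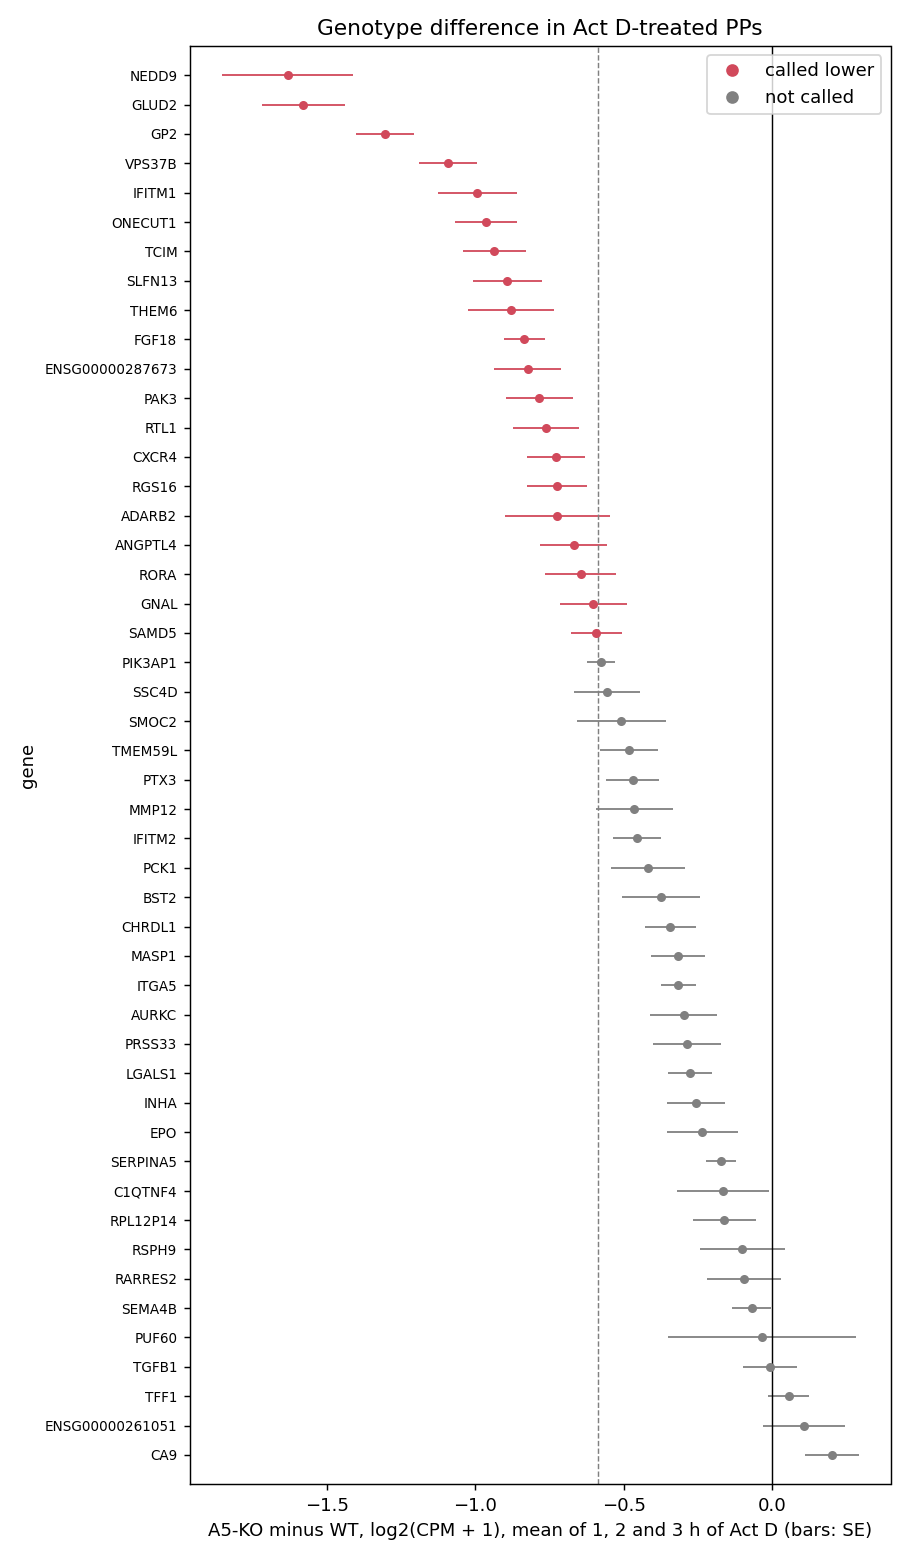
The A5-KO minus WT difference on the log2(CPM + 1) scale, averaged over 1, 2 and 3 h of Act D (x axis), is drawn for 48 genes (y axis) with its standard error from limma, 2 libraries per genotype and time. Red marks 20 genes called lower, the dashed line the 1.5-fold limit, and *NEDD9* and *GLUD2* stand at the low end.

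Because the genes were chosen for their 0 h values, a smaller difference in libraries that did not choose them cannot be told apart from an effect of that choice. Under Act D the difference was at least as large as at 0 h for 10 genes, at least 50% but less than that at 0 h for 20, smaller still for 17 and of opposite sign for 3 of 50. The median log2 difference of these 50 genes was −0.77 at 0 h, −0.54 at 1 h, −0.44 at 2 h and −0.42 at 3 h. Both A5-KO libraries were below both WT libraries in 39 of 51 genes at 1 h, in 37 at 2 h and in 37 at 3 h, against 23.5%, 37.5% and 45.8% of all genes tested. At all 3 times this held for 25 genes, against 8.33% of genes tested. Both A5-KO libraries were above both WT libraries in 3 genes at 1 h (*CA9*, *EPO* and *TGFB1*), in 2 at 2 h (*TFF1* and ENSG00000261051) and in 0 at 3 h, against 32.6%, 19.7% and 20.2% of genes tested, and in 0 at all 3 times, against 4.55%. Tested at 1, 2 and 3 h alone with limma, 15, 17 and 15 genes of the list were called lower, against 0.921%, 2.98% and 17.1% of all genes, so that the share at 3 h stands against a high background. The genes called higher at the single times were 1, 0 and 0 of the list, against 2.44%, 2.44% and 1.08%. At an unadjusted limma *p* below 0.05, 2, 1 and 0 were higher, against 1610, 1201 and 1083 of all 13462 genes tested.

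**Figure D3:**
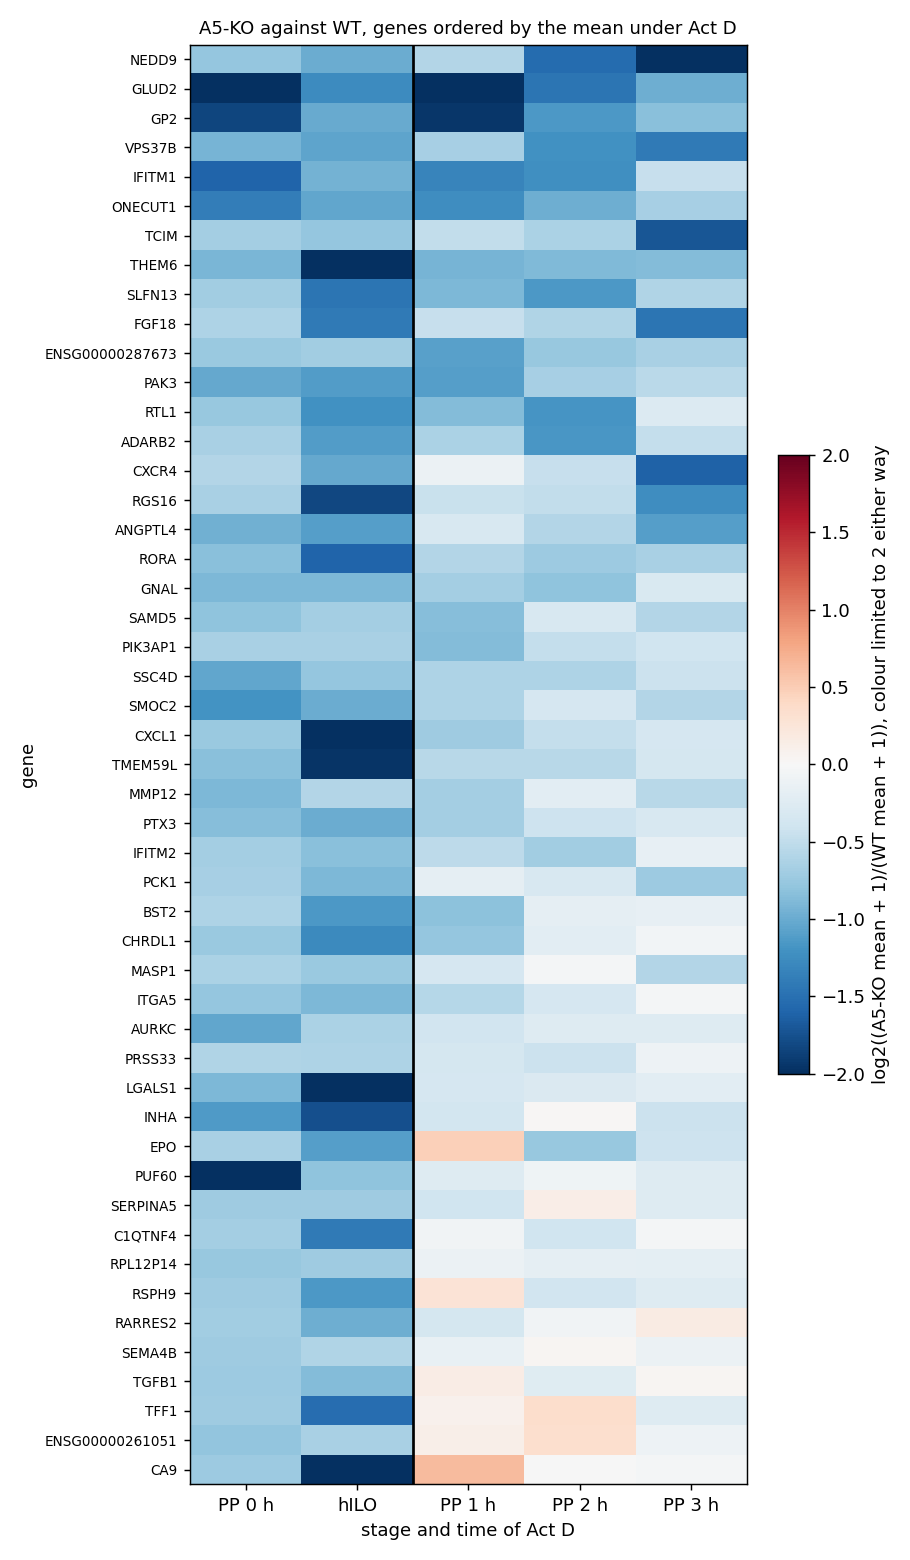
The colour gives log2 of (A5-KO mean + 1) over (WT mean + 1) for 49 genes (rows) in PPs at 0 h, hILOs and PPs after 1, 2 and 3 h of Act D (columns), blue for lower and red for higher in A5-KO, limited to 2 either way. The first 2 columns chose the genes and are blue throughout, whereas the lower rows of the Act D columns, such as *CA9*, *TFF1* and *TGFB1*, are pale or red.

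The genes were grouped by the known role of their products, a grouping made by hand with the values known. In each group, the number called lower under Act D stands against 4.63% of all 13462 genes tested. Of 3 genes for transcription factors or the progenitor surface, 3 were called lower under Act D. *ONECUT1* (HNF6) encodes a homeobox factor of early pancreas and liver, and it was at 18.7 and 17.1 CPM (WT) against 7.23 and 5.33 CPM (A5-KO) in PPs at 0 h. In hILOs it was at 2.18 and 3.65 TPM against 1.099 and 0.700 TPM. Under Act D its lowest, median and highest CPM were 8.50, 11.5 and 13.9 in the 6 WT libraries and 4.26, 5.21 and 6.36 in the 6 A5-KO libraries. The genotypes did not overlap at any time, with a difference of −0.97 ± 0.10 on the log2 scale (SE, limma adjusted *p* = 3.1e-05).

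The other members of the ONECUT family did not share this pattern at both stages. *ONECUT2* was at 157 and 140 CPM in WT against 196 and 163 CPM in A5-KO PPs, and at 14.8 and 14.5 TPM against 22.0 and 21.0 TPM in hILOs. *ONECUT3* was at 22.2 and 21.4 CPM against 10.0 and 10.6 CPM in PPs, but at 2.62 and 2.26 TPM against 3.42 and 3.73 TPM in hILOs. Among the 8 progenitor markers, 7 were called lower under Act D (among them *GATA4*, *GATA6*, *NKX6-1*, *ONECUT1*, *PDX1* and *SOX9*), against 4.63% of all genes, with *ONECUT1* the single gene of that list that met the conditions at both stages. At 0 h, 2 of these 8 markers were lower and 2 higher without overlap, against 21% and 29.3% of 14251 genes. Their sums overlapped, from 1019 to 1292 CPM in WT and from 966 to 1071 CPM in A5-KO.

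*GP2* encodes glycoprotein 2, a membrane protein used to isolate human PPs, and showed a large difference in PPs. Its 0 h values were 47.3 and 55.7 CPM in WT against 12.1 and 15.3 CPM in A5-KO, and its hILO values were 10.2 and 9.86 TPM against 3.95 and 5.05 TPM. Under Act D its lowest, median and highest CPM were 29.2, 45.9 and 56.8 in WT and 13.3, 17.0 and 20.8 in A5-KO, without overlap. The log2 difference was −1.31 ± 0.10 (limma adjusted *p* = 1.2e-06). *RORA*, which encodes a nuclear receptor of lipid metabolism and the circadian clock, was at 7.75 and 5.61 CPM against 4.57 and 2.05 CPM at 0 h and at 2.09 and 2.87 TPM against 0.195 and 0.0984 TPM in hILOs. Its Act D difference of −0.65 ± 0.12 (limma adjusted *p* = 0.0016) was no longer called without the WT replicate 1 at 3 h (−0.57), and the same library ended the calls of *ADARB2*, *GNAL* and *SAMD5*.

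Secreted and membrane-bound signals made up 13 genes, of which 12 could be tested under Act D and 2 were called lower, *FGF18* and *ANGPTL4*. *FGF18* encodes a fibroblast growth factor, and its values were 196 and 182 CPM (WT) against 114 and 132 CPM (A5-KO) in PPs at 0 h, with 14.1 and 13.9 TPM against 4.10 and 5.12 TPM in hILOs. Its CPM under Act D was 148 and 156 against 113 and 109 at 1 h, 106 and 142 against 78.6 and 84.1 at 2 h, and 124 and 121 against 46.7 and 40.7 at 3 h. The gap widened with time, and the mean difference was −0.83 ± 0.07 (limma adjusted *p* = 3.0e-06).

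For the TGF-β superfamily genes *TGFB1* and *INHA*, the 0 h difference did not pass the test under Act D. *TGFB1*, the gene of the TGF-β1 ligand, was at 55.3 and 55.4 CPM in WT against 30.5 and 35.7 CPM (A5-KO) at 0 h. At 1 h of Act D it was at 50.5 and 52.2 CPM in WT and higher, at 56.7 and 57.1 CPM, in A5-KO, and its mean difference over 1 to 3 h was −0.01 ± 0.09 (limma adjusted *p* = 0.96). It shares 215 of 3264 exonic bases with *HNRNPUL1* on the opposite strand. *INHA*, which encodes the inhibin α subunit that pairs with a β subunit to oppose activin, was at 9.42 and 10.0 CPM against 3.77 and 3.98 CPM at 0 h and at 20.0 and 19.9 TPM against 5.37 and 5.07 TPM in hILOs. At 2 h its values overlapped, at 8.89 and 8.08 CPM (WT) against 9.69 and 7.67 CPM (A5-KO), and its mean difference of −0.26 ± 0.10 missed the threshold (limma adjusted *p* = 0.060). *INHBB*, a β subunit gene outside the list, was at 9.98 and 9.74 TPM (WT) against 5.46 and 5.10 TPM (A5-KO) in hILOs, and was below 1 CPM in all PP libraries at 0 h. The β subunit gene *INHBA* was at 1.255 and 1.80 TPM against 0.247 and 0.117 TPM in hILOs, and in PPs at 0 h it was the other way, at 0.919 and 0.775 CPM against 1.55 and 1.82 CPM. *CHRDL1* encodes a secreted BMP antagonist and was at 52.0 and 48.2 CPM against 32.0 and 27.0 CPM at 0 h and at 6.34 and 5.17 TPM against 1.93 and 1.68 TPM in hILOs. At 3 h its values overlapped, at 44.7 and 44.7 CPM (WT) against 41.6 and 44.9 CPM (A5-KO).

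Several other signals were abundant in hILOs. *TFF1*, a trefoil peptide of mucosal surfaces, was at 219 and 216 TPM (WT) against 78.5 and 71.6 TPM (A5-KO) in hILOs, and at 45.6 and 52.9 CPM against 24.8 and 34.9 CPM in PPs at 0 h. *RARRES2*, which encodes the chemoattractant chemerin, was at 62.8 and 56.0 TPM against 28.2 and 30.9 TPM, and *SEMA4B*, a transmembrane semaphorin of the semaphorin and plexin list, at 34.3 and 35.5 TPM against 23.8 and 21.6 TPM in hILOs. None of these 3 genes passed the test under Act D, with log2 differences of 0.06 ± 0.07 for *TFF1*, −0.09 ± 0.13 for *RARRES2* and −0.07 ± 0.07 for *SEMA4B*. *TFF1* was higher in both A5-KO libraries at 2 h (60.4 and 68.5 CPM against 53.6 and 47.0 CPM in WT). *CXCL1*, a neutrophil chemokine that shares much sequence with *CXCL2* and *CXCL3*, was at 32.6 and 34.5 TPM against 5.82 and 7.87 TPM in hILOs, and at 2.61 and 2.35 CPM against 0.927 and 1.23 CPM in PPs. It fell under the filter of a mean of 1 CPM and was not tested under Act D, although both A5-KO values were below both WT values at each time.

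*PTX3*, a soluble pattern recognition protein, and *SMOC2*, a matricellular protein, were lower under Act D at the adjusted *p* of limma but within 1.5-fold, by −0.47 ± 0.09 (0.0018) and −0.51 ± 0.15 (0.021). *SMOC2* was called lower by edgeR (−0.79), by DESeq2 (−0.78) and with a pseudocount of 0.1 CPM (−0.79). *PTX3* ranged from 8.06 to 11.5 CPM (median 9.88) in WT and from 5.87 to 7.27 CPM (median 6.84) in A5-KO, so every A5-KO value lay below every WT value. *C1QTNF4*, a C1q-related secreted protein, went from 8.42 and 10.5 TPM to 2.73 and 3.096 TPM in hILOs, and its values overlapped at each time of Act D.

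Receptors and intracellular signalling genes had the largest number of calls, 8 of 10, against 4.63% of all genes tested. *CXCR4* encodes the receptor for the chemokine CXCL12, and was at 14.2 and 12.3 CPM in WT against 8.68 and 8.23 CPM (A5-KO) at 0 h, and at 70.7 and 74.4 TPM against 37.6 and 33.0 TPM in hILOs. At 1 h of Act D its values overlapped (8.98 and 10.9 against 8.69 and 9.41 CPM), and by 3 h they were far apart (8.74 and 8.03 against 1.96 and 2.18 CPM). *RGS16*, a GTPase activator that ends G-protein signals, was at 8.67 and 8.03 CPM against 5.16 and 4.80 CPM at 0 h and had larger differences in hILOs, at 126 and 126 TPM against 36.2 and 33.7 TPM. Both genes had a mean Act D difference of −0.73 ± 0.10 (limma adjusted *p* = 0.00019 for *CXCR4* and 0.00023 for *RGS16*). *GNAL*, the gene of the olfactory-type stimulatory G-protein α subunit, was lower by −0.60 ± 0.11 (limma adjusted *p* = 0.0016). It shares 2261 of its 8165 exonic bases with *MPPE1* on the opposite strand, and whether the counting used strand is not given in the sources used here.

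*NEDD9*, a scaffold protein of focal adhesions, had an Act D difference of −1.63 ± 0.22 (limma adjusted *p* = 0.00019). It stood at 122 and 86.8 CPM (WT) against 72.8 and 49.0 CPM (A5-KO) at 0 h and dropped within 1 h to 14.8 and 17.8 CPM against 9.95 and 11.0 CPM. At 3 h it was at 10.9 and 29.6 CPM in WT, a wide spread, and at 1.65 and 1.49 CPM in A5-KO. In hILOs it was at 23.7 and 23.8 TPM against 11.9 and 11.1 TPM. *TCIM*, a small regulator of Wnt signalling, followed a similar course, from 97.9 and 87.2 CPM against 61.3 and 53.4 CPM at 0 h to 29.3 and 44.7 CPM against 10.6 and 10.5 CPM at 3 h, with a mean difference of −0.94 ± 0.11 (limma adjusted *p* = 4.7e-05).

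*PAK3*, a p21-activated kinase studied in neurons and islet cells, was at 15.5 and 16.2 CPM (WT) against 8.07 and 6.59 CPM (A5-KO) at 0 h, and at 5.26 and 5.50 TPM against 2.94 and 0.931 TPM in hILOs. Under Act D its lowest, median and highest CPM were 8.47, 9.61 and 11.6 in WT and 3.56, 5.46 and 6.61 in A5-KO, without overlap, and the difference was −0.78 ± 0.11 (limma adjusted *p* = 0.00028). *PIK3AP1*, an adaptor that recruits PI3K, had narrowly spaced replicates, at 135 and 144 CPM against 91.2 and 85.5 CPM at 0 h. Its Act D difference of −0.58 ± 0.05 had a low limma adjusted *p* (3.5e-06) but lay just within 1.5-fold. *SAMD5*, a SAM-domain protein, was lower by −0.59 ± 0.09 (limma adjusted *p* = 0.00030), and *AURKC*, a meiotic kinase, had a difference of −0.30 ± 0.11 that missed the threshold (0.059).

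Of 8 genes for adhesion, proteases and protease inhibitors, 0 were called under Act D by limma, edgeR or DESeq2. At a limma *p* below 0.05 with no fold limit, 8 were lower before adjustment and 7 after it. Of all 13462 genes tested, 4112 were lower before adjustment and 3122 after it at the same limits. *LGALS1*, the β-galactoside-binding lectin galectin-1, went from 19.2 and 19.6 TPM to 2.98 and 4.02 TPM in hILOs and from 36.7 and 42.7 CPM to 17.8 and 23.7 CPM in PPs at 0 h. *ITGA5*, the α subunit of the fibronectin receptor, was at 141 and 142 CPM against 82.6 and 82.4 CPM at 0 h, with very close replicates, and its Act D difference was −0.32 ± 0.06 (limma adjusted *p* = 0.0015). At 3 h its values overlapped (136 and 116 against 119 and 126 CPM).

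*SERPINA5*, an inhibitor of activated protein C, had the highest WT level of the list in hILOs per length, at 294 and 304 TPM against 182 and 184 TPM. In PPs it was at 423 and 443 CPM against 263 and 267 CPM at 0 h, and at 2 h of Act D its values overlapped (426 and 351 against 432 and 424 CPM). It shares 79 of 3751 exonic bases with ENSG00000273259 on the same strand. *MASP1*, a protease that starts the lectin pathway of complement, was at 29.7 and 32.6 TPM against 18.6 and 17.8 TPM, and *MMP12*, the macrophage elastase, at 9.30 and 9.77 TPM against 5.98 and 6.04 TPM in hILOs. *PRSS33*, a serine protease, was near both limits. *SSC4D*, a scavenger receptor cysteine-rich protein, was at 8.81 and 9.26 CPM against 3.99 and 3.78 CPM at 0 h and lower by −0.56 ± 0.11 under Act D (limma adjusted *p* = 0.0023).

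Of 4 interferon-linked genes, 2 were called lower under Act D, *IFITM1* and *SLFN13*. The IFITM proteins are membrane proteins that restrict entry of enveloped viruses, and BST2 (tetherin) holds budding virions at the cell surface. *IFITM1* was at 162 and 152 TPM (WT) against 85.9 and 76.7 TPM (A5-KO) in hILOs, and at 6.11 and 7.44 CPM against 1.21 and 1.93 CPM in PPs at 0 h. Under Act D its lowest, median and highest CPM were 4.03, 6.07 and 8.54 in WT and 2.13, 2.32 and 3.19 in A5-KO, and the difference was −0.99 ± 0.13 (limma adjusted *p* = 0.00017). The neighbouring *IFITM2* was at 46.3 and 43.0 TPM against 23.4 and 25.8 TPM in hILOs and at 19.5 and 23.1 CPM against 12.1 and 13.8 CPM at 0 h, with an Act D difference of −0.45 ± 0.08 (limma adjusted *p* = 0.0011). *IFITM3*, outside the list, was at 349 and 344 TPM against 235 and 230.0 TPM in hILOs and at 50.95 and 56.1 CPM against 32.5 and 41.4 CPM at 0 h. These paralogs are close in sequence, and reads may have been divided between them.

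*BST2* was at 24.7 and 23.2 TPM against 10.1 and 10.4 TPM in hILOs and at 2.35 and 2.88 CPM against 1.14 and 1.55 CPM in PPs at 0 h, with an Act D difference of −0.37 ± 0.13 (limma adjusted *p* = 0.045). *SLFN13*, a tRNA-cleaving Schlafen protein, was at 7.38 and 4.96 CPM against 4.20 and 2.61 CPM at 0 h and at 2.07 and 2.77 TPM against 0.297 and 0.175 TPM in hILOs, and was lower by −0.89 ± 0.12 under Act D (limma adjusted *p* = 0.00014). In a list of 16 interferon-induced genes chosen after the members were known, 9 were lower and 4 higher without overlap in hILOs, against 37.2% and 24.4% of 18117 genes. Of the 9, *BST2*, *IFITM1* and *IFITM2* were lower by the choice of genes. Under Act D, 1 of 11 tested was called lower (*IFITM1*) and 1 higher (*OAS1*), against 4.63% and 1.89% of all genes tested.

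The promoters of *IFITM1* and *BST2* are shown because both hold the interferon-stimulated response element. Promoter windows of 300 bases around the start of transcription (RefSeq, GRCh38.p14) were found for 35 of the 51 genes. Capitals mark the element, searched on both strands as GAAA, any 2 bases and GAAA, which begins 40 and 6 bases before the start in *IFITM1* and 130 and 124 bases before it, overlapping, in *BST2*.
IFITM1, chr11:313790-314089, + strand: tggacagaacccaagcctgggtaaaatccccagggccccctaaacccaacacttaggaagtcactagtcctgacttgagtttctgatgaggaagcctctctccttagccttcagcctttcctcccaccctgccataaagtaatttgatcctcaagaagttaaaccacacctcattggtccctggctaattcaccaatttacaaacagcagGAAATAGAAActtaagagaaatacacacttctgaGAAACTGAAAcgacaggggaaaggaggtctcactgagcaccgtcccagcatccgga
BST2, chr19:17405581-17405880, - strand: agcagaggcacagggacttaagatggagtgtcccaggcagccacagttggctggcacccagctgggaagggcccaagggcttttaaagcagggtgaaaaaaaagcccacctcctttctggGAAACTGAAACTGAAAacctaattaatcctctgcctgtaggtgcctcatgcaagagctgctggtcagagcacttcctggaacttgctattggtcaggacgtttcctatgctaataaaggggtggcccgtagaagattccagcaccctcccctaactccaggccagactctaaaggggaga
The element was found in 3 of the 35 promoters (8.57%), those of *BST2*, *IFITM1* and *PAK3*, and in 3.65% of 27305 promoters. A match describes the letters of the window and not its use in these cells.

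The metabolic genes were 4, of which *GLUD2* and *THEM6* were called lower under Act D. *GLUD2* is an intronless X-linked copy of *GLUD1*, the mitochondrial glutamate dehydrogenase gene. It was at 4.62 and 7.90 CPM (WT) against 0.402 and 0.351 CPM (A5-KO) at 0 h, and at 27.7 and 29.4 TPM against 10.7 and 12.0 TPM in hILOs. Under Act D its lowest, median and highest CPM were 1.64, 2.77 and 6.77 in WT and 0.142, 0.409 and 0.727 in A5-KO, with a difference of −1.58 ± 0.14 (limma adjusted *p* = 5.7e-06). At these low levels the size depended on the method, at −2.71 with a pseudocount of 0.1 CPM and −2.81 by edgeR and by DESeq2. *GLUD1* did not fall with it, at 142 and 140 CPM against 165 and 167 CPM at 0 h and at 231 and 229 TPM against 249 and 208 TPM in hILOs. Reads shared between these near-identical copies make the level of *GLUD2* uncertain.

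Among the metabolic genes, *THEM6*, a thioesterase superfamily member, was at 15.0 and 14.2 TPM (WT) against 1.22 and 2.06 TPM (A5-KO) in hILOs, and at 4.59 and 5.21 CPM against 1.79 and 2.49 CPM at 0 h, with an Act D difference of −0.88 ± 0.14 (limma adjusted *p* = 0.00074). *PCK1*, the rate-limiting enzyme of gluconeogenesis, was at 10.4 and 11.9 CPM against 6.64 and 6.59 CPM at 0 h and at 9.13 and 8.65 TPM against 4.99 and 3.64 TPM in hILOs, and its Act D difference was −0.42 ± 0.12 (limma adjusted *p* = 0.021). *PCK1*, *SERPINA5* and *MASP1* are highly expressed in liver. That all 3 were lower at both stages was set by the choice of genes, while the summed hepatocyte markers were higher in A5-KO.

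*CA9*, *EPO* and *ANGPTL4* are targets of hypoxia-inducible factors. CA9 is a membrane carbonic anhydrase, EPO the hormone of red cell production and ANGPTL4 an inhibitor of lipoprotein lipase. *CA9* was at 23.0 and 25.7 CPM (WT) against 13.6 and 14.9 CPM (A5-KO) in PPs at 0 h, and at 6.51 and 6.08 TPM against 0.0632 and 0.729 TPM in hILOs. *EPO* was at 4.99 and 3.38 CPM against 2.57 and 2.08 CPM at 0 h and at 2.27 and 2.68 TPM against 0.738 and 0.513 TPM in hILOs. *ANGPTL4* was at 8.90 and 7.65 CPM against 4.30 and 3.28 CPM at 0 h and at 45.9 and 43.2 TPM against 21.4 and 19.01 TPM in hILOs.

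Under Act D these genes parted. *ANGPTL4* was called lower (−0.67 ± 0.11, limma adjusted *p* = 0.00086). *CA9* was at 19.6 and 15.7 CPM (WT) against 25.2 and 31.0 CPM (A5-KO) at 1 h, the opposite of 0 h, and in the comparison at 1 h alone it was called higher in A5-KO by 0.64 ± 0.16 (limma adjusted *p* = 0.032), where 2.44% of genes were called higher. *EPO* was also higher in both A5-KO libraries at 1 h (4.57 and 4.47 CPM against 3.46 and 2.47 CPM) without passing the test (0.49 ± 0.21, limma adjusted *p* = 0.19), and lower at 2 h (2.77 and 1.74 CPM against 4.81 and 4.22 CPM). Averaged over the 3 times, the differences of *CA9* (0.20 ± 0.09) and *EPO* (−0.23 ± 0.12) missed the threshold, at limma adjusted *p* of 0.11 and 0.15. *CA9* shares 571 of its 1598 exonic bases with *ARHGEF39* on the opposite strand.

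In a list of 16 hypoxia-induced genes chosen after the members were known, 16 were lower without overlap in hILOs, against 37.2% of 18117 genes, and 12 were lower and 2 higher in PPs at 0 h, where 21% of 14251 genes were lower and 29.3% higher without overlap. The list summed to between 2741 and 2806 TPM in WT and between 1393 and 1567 TPM in A5-KO hILOs. The list holds *ANGPTL4*, *CA9* and *EPO*, whose direction at 0 h and in hILOs was set by the choice of genes. Under Act D, 2 of these 16 genes were called lower, *ANGPTL4* and *EGLN3*, against 4.63% of all genes tested.

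Among the targets of hypoxia-inducible factors named above, promoters are shown for *CA9* and *EPO*, which at 1 h of Act D were higher in A5-KO without overlap. Only *CA9* was called there, and at 0 h and in hILOs the direction of both was set by the choice of genes. Capitals mark the core of the hypoxia response element, searched as ACGTG or GCGTG on both strands, here on the opposite strand as CACGT or CACGC. It begins 18 bases before the start in *CA9* and 14 bases after it in *EPO*.
CA9, chr9:35673678-35673977, + strand: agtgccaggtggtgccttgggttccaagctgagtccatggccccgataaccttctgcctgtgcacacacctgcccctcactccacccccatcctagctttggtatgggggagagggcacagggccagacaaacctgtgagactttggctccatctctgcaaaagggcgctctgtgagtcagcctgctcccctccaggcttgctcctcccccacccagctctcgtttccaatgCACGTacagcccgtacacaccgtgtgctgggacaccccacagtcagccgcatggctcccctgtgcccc
EPO, chr7:100720218-100720517, + strand: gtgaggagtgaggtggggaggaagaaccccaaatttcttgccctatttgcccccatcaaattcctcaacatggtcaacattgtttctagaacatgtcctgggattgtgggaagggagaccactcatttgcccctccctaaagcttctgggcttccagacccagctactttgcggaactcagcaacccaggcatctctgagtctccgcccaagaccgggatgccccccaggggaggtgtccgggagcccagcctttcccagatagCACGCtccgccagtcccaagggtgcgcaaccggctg
This short core was in 16 of the 35 promoters (45.7%) and in 48.4% of all 27305, so it did not set the list apart. For the other motifs searched on both strands, the share was 8.57% of the list against 7.76% of all promoters for the AP-1 site (TGANTCA), 80% against 58% for a loose kappaB pattern (GGG, any 5 bases, CC), 8.57% against 12% for TATAAA and 11.4% against 16.8% for the SMAD box (CAGACA). The median number of CG dinucleotides was 18 in the list, from 1 (*RORA*) to 39 (*ONECUT1*), and 14 over all promoters.

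The remaining 9 genes have varied roles, and 4 of them were called lower under Act D. *VPS37B*, a subunit of the ESCRT-I complex that sorts membrane proteins to lysosomes, was lower in every A5-KO library than in every WT library of its stage and time. It was at 35.5 and 32.1 CPM (WT) against 17.2 and 17.2 CPM (A5-KO) at 0 h, at 17.6 and 16.6 TPM against 7.79 and 7.67 TPM in hILOs, and its difference under Act D was −1.09 ± 0.10 (limma adjusted *p* = 6.3e-06) with no overlap at any time. *RTL1*, an imprinted retrotransposon-derived gene needed in the placenta, was at 40.9 and 43.7 CPM against 25.0 and 24.3 CPM at 0 h and lower by −0.76 ± 0.11 under Act D (limma adjusted *p* = 0.00032). Among 28 imprinted genes tested, it was the 1 called lower and *FAM50B* the 1 called higher, against 4.63% and 1.89% of all genes. *RTL1* shares 1312 of 5398 exonic bases with *MIR493HG* on the opposite strand. *TMEM59L*, a membrane protein of neurons, went from 22.5 and 21.3 TPM to 2.93 and 6.90 TPM in hILOs. *ADARB2*, a catalytically inactive RNA editing family member, was lower by −0.72 ± 0.18 under Act D (limma adjusted *p* = 0.0079), and the long noncoding RNA ENSG00000287673 by −0.82 ± 0.11 (0.00021).

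*PUF60*, a splicing factor gene, had the largest standard error of the list under Act D. It was at 12.9 and 23.9 CPM (WT) against 2.66 and 2.67 CPM (A5-KO) in PPs at 0 h, and at 96.0 and 109 TPM against 59.5 and 57.6 TPM in hILOs. Under Act D it ranged from 4.12 to 29.9 CPM (median 16.01) in WT and from 8.27 to 19.6 CPM (median 14.5) in A5-KO, so its large fold at 0 h was not seen again (−0.03 ± 0.32, limma adjusted *p* = 0.95). *RSPH9*, a radial spoke protein of motile cilia, *RPL12P14*, a processed copy of a ribosomal protein gene, and the long noncoding RNA ENSG00000261051 also did not pass the test under Act D, at −0.10 ± 0.14, −0.16 ± 0.11 and 0.11 ± 0.14. *RSPH9* shares 705 of 2642 exonic bases with *MRPS18A*, and *RPL12* itself was at 1314 and 1533 CPM (WT) against 1174 and 1358 CPM (A5-KO) at 0 h. In hILOs *RPL12* was at 2208 and 2159 TPM (WT) against 1643 and 1627 TPM (A5-KO), and whether *RPL12P14* took up some of its reads was not tested.

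The course from 1 to 3 h of Act D was compared between the genotypes with limma as a difference in slope of log2(CPM + 1) per h. Because CPM is a share of each library, a faster or slower fall here is relative to the RNA pool of that genotype. The paper, which scaled to spike-ins, reports lower mRNA stability in A5-KO across the transcriptome, and absolute decay was not tested here. Of the 50 genes, 4 fell faster in A5-KO, against 11.4% of genes tested, and 4 fell more slowly, against 0.862%. The genes that fell faster were *NEDD9* (−1.16 ± 0.31, adjusted *p* = 0.023), *CXCR4* (−0.75 ± 0.13, 0.0053), *TCIM* (−0.60 ± 0.18, 0.041) and *FGF18* (−0.51 ± 0.10, 0.0067). In A5-KO, *CXCR4* fell by 0.86 and *FGF18* by 0.66 per h, whereas in WT they fell by 0.11 and 0.16 per h. The slope of *NEDD9* and *TCIM* in WT was slightly positive, at 0.08 and 0.10.

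Among the genes with a slope difference in the other direction were *GLUD2* (0.64 ± 0.18, limma adjusted *p* = 0.027), *GP2* (0.55 ± 0.14, 0.020) and *CHRDL1* (0.37 ± 0.11, 0.037). These 3 fell in WT and were nearly level or rose in A5-KO, so that the genotypes approached each other. *GP2* went from 56.8 and 56.3 CPM at 1 h to 33.2 and 29.2 CPM at 3 h in WT, and from 14.7 and 13.3 CPM to 14.6 and 19.6 CPM in A5-KO. *GLUD2* was below 1 CPM in every A5-KO library, from 5 to 23 reads under Act D, where log2(CPM + 1) leaves little room to fall. The count of 4 genes that fell more slowly became 0 without A5-KO replicate 2 at 1 h, A5-KO replicate 2 at 3 h, WT replicate 1 at 1 h or WT replicate 2 at 3 h, with between 5 and 8 at an unadjusted limma *p* below 0.05. At that unadjusted limit, between 281 and 458 of all genes tested fell more slowly. The count of 4 that fell faster became 2 without any of those libraries or without A5-KO replicate 1 at 1 h. Over all genes, 1533 fell faster and 116 more slowly, and 1043 and 342 under median-of-ratios scaling, where the list had 3 and 5.

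**Figure D4:**
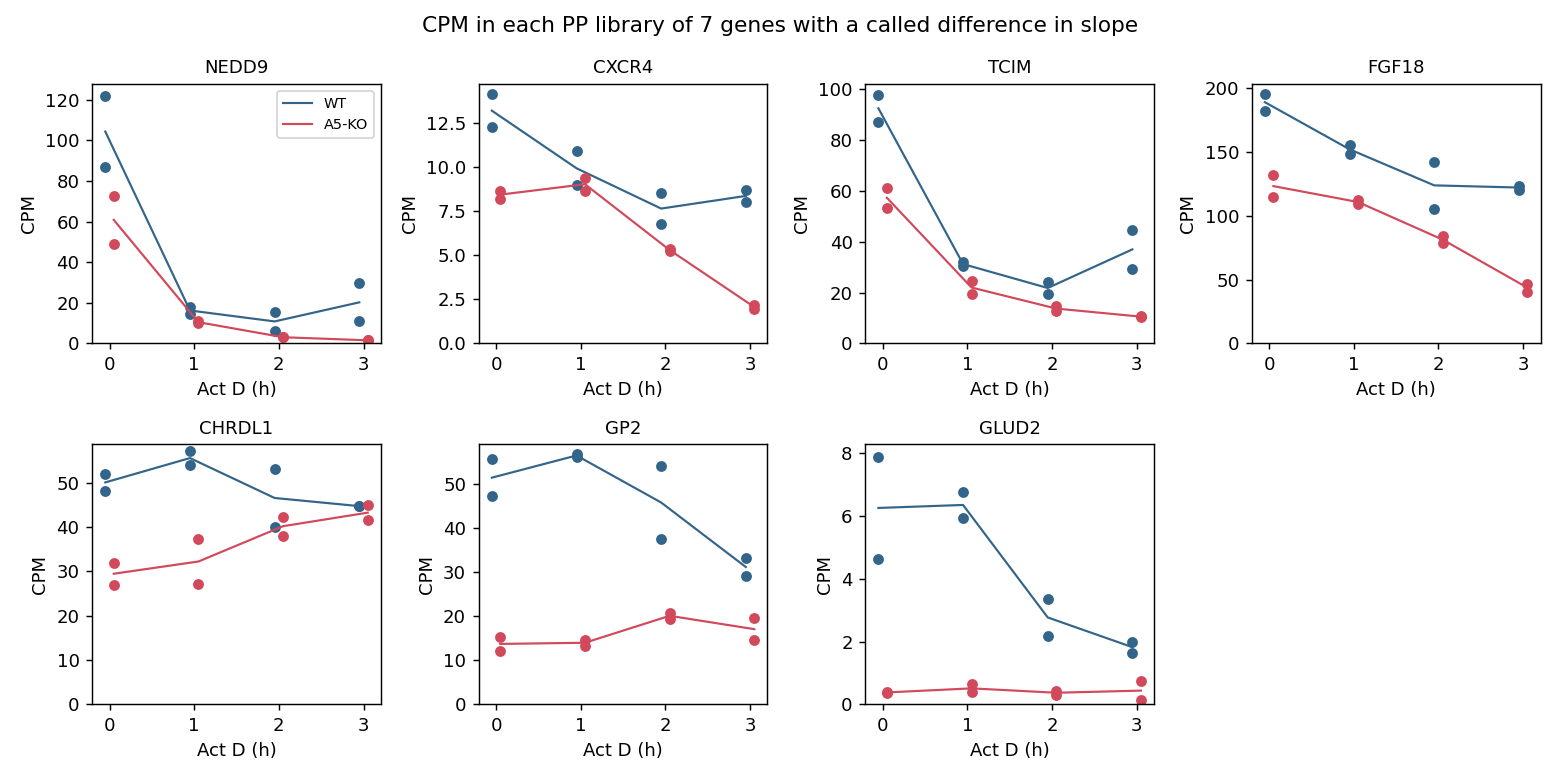
CPM (y axis, from 0) in each PP library after 0, 1, 2 and 3 h of Act D (x axis) for 7 genes with a called difference in slope, WT in blue and A5-KO in red, with lines through the means of 2 libraries. *CXCR4* and *FGF18* separate with time, whereas the lines of *CHRDL1* meet at 3 h.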

How the data were processed

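RNA-seq was analysed in 20 libraries of WT and A5-KO cells, 4 of hILOs and 16 of PPs, 2 for each genotype, stage and time. Per the labels and the paper, reads were trimmed (fastp) and mapped to GRCh38 by HISAT2 2.1.0. The authors deposited TPM for each gene of the hILO libraries, made with StringTie. For PPs, the authors deposited CPM after removal of spike-ins. The read counter and the annotation release are not given in the sources used here. At least 99.995% of CPM values were whole multiples of what 1 read is worth (tolerance 0.01 read), which gave back the reads of each library. The precision is limited by 2 libraries per condition. Coordinates and overlaps came from GENCODE on GRCh38.

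The genes and the gene lists were chosen with earlier results of these data known. Genes named with values are, by a rule, those with the largest differences, highest levels or called changes, those next to the fold limits, and those in the lists or next to another member, and the others are named by role. The values of 2 of the 51 genes and of 1 marker are not reported here, although the counts include them. For the Act D libraries, genes averaging 1 CPM or more were fitted on log2(CPM + 1) with limma (3.58.1, R 4.3.3, eBayes with a trend). The contrast was A5-KO minus WT averaged over 1, 2 and 3 h, called at an adjusted *p* below 0.05 and over 1.5-fold. The slope was called at an adjusted *p* below 0.05. As alternatives, the recovered reads were fitted with edgeR (4.0.16) and with DESeq2 (1.42.0). The code was tested on simulated data, in which every gene had the same dispersion and as many genes were raised as lowered. The real libraries differ in both respects. Recovery there therefore tests the code and does not measure error rates in these libraries. In the contrast, 91 of 100 genes changed by 1 on the log2 scale and 95 of 100 changed by 2 were recovered among 13410 genes, with 0 unchanged genes called. For the slope, 43 of 100 genes changed by 0.5 per h and 95 of 100 changed by 1 were recovered among 13414 genes, with 0 unchanged genes called.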

Additional observations from a re-analysis of the deposited data

Results flagged for a closer look

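The course from 1 to 3 h of Act D differed between A5-KO and WT PPs in 8 of the 51 genes by a test of the difference itself, the genotype-by-time term of limma at an adjusted *p* below 0.05. The slope difference, A5-KO minus WT in log2 per h, was −1.1566 for *NEDD9*, −0.7458 for *CXCR4*, −0.5960 for *TCIM* and −0.5056 for *FGF18*, which fell faster in A5-KO. It was 0.3678 for *CHRDL1*, 0.5496 for *GP2* and 0.6438 for *GLUD2*, which fell more slowly or not at all in A5-KO. These are courses of a share of the library, and absolute decay was not tested. With each library left out in turn, *CXCR4* and *FGF18* passed throughout, whereas the other 5 named here each lost significance at least once and none changed sign. The lowest slope difference was then 0.2584 for *CHRDL1*, 0.4677 for *GP2* and 0.5031 for *GLUD2*, and the highest was −0.7599 for *NEDD9* and −0.3822 for *TCIM*.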

How the results depend on the processing

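Of the 21 genes called lower under Act D, 17 were called with each library left out, with a pseudocount of 0.1 CPM, median-of-ratios scaling, the replicate block, robust eBayes, edgeR and DESeq2, and *ADARB2*, *GNAL*, *RORA* and *SAMD5* were not. The number of the 51 genes called lower was 12 at a mean of at least 5 CPM, where 32 could be tested, 36 with no fold limit, and between 17 and 23 with a library left out. The number called higher was 1 at 1 h alone and between 0 and 0 with a library left out. Over all genes, 124, 401 and 2304 were lower at 1, 2 and 3 h alone, 3122 with no fold limit, 952 with a pseudocount of 0.1 CPM, 961 without WT replicate 1 at 2 h and 371 without WT replicate 2 at 2 h. Genes higher numbered 145 at 3 h alone, 429 by DESeq2, 432 by edgeR, 160 at a mean of at least 5 CPM, 1098 with no fold limit, and between 234 and 278 with a library left out. The cause of these shifts was not tested.

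For slopes, with no filter on low values 1 of the 51 genes fell faster and 0 more slowly, and over all genes 242 and 15. The number that fell more slowly was 7 by DESeq2 and 2 at a mean of at least 5 CPM, and over all genes 528 by DESeq2, 355 by edgeR and 342 under median-of-ratios scaling. With a library left out, between 2 and 6 of the 51 genes fell faster and between 0 and 5 more slowly, and between 498 and 2031 and between 27 and 192 of all genes. Replicate numbers did not pair the libraries (correlations of deviations of −0.01, −0.06 and −0.01 at 1, 2 and 3 h). With the replicate block, 21 of the 51 genes were lower, 4 fell faster and 3 more slowly, with 624 and 255 genes lower and higher and 1367 and 106 genes falling faster and more slowly.

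The choice of genes gave 32 with a WT mean of at least 5, 18 with one of at least 10, 227 at the lower fold limit tried, 5 at 2-fold, and between 50 and 74 with a library left out. The sign turned for genes that were not called. At 1 h alone it was 0.4886 for *EPO*, 0.3100 for *RSPH9* and 0.1452 for *TGFB1*. At 2 h alone it was 0.0227 for *INHA*, 0.1030 for *PUF60*, 0.0520 for *SEMA4B* and 0.1460 for *SERPINA5*. At 3 h alone it was 0.0025 for *C1QTNF4*, −0.0474 for *CA9*, −0.1273 for ENSG00000261051, 0.0706 for *PUF60*, 0.1500 for *RARRES2*, −0.2659 for *TFF1* and 0.0760 for *TGFB1*. Median-of-ratios scaling gave 0.0291 for *PUF60* and 0.0583 for *TGFB1*, edgeR 0.0490 for *TGFB1*, and DESeq2 0.0027 for *SEMA4B* and 0.0519 for *TGFB1*. With a library left out, the value ran from −0.3851 to 0.3173 for *PUF60*, from −0.2140 to 0.0135 for *RSPH9*, from −0.1150 to 0.0998 for *TGFB1* and from −0.0035 to 0.1153 for *TFF1*. Depth limits the low genes, since *GLUD2* had from 5 to 23 reads in the A5-KO libraries under Act D.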

Other observations

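In a list of 14 TGF-β-induced genes chosen after the members were known, which holds *ITGA5*, *LGALS1*, *NEDD9* and *TGFB1* among others, 11 of 13 measured in hILOs were lower and 2 higher in A5-KO without overlap, against 37.2% and 24.4% of all genes. In PPs at 0 h, 7 of 13 were lower and 3 higher, against 21% and 29.3% of all genes. The list summed to between 156 and 161 TPM in WT and between 79.2 and 84.5 TPM in A5-KO hILOs, and to between 466 and 501 CPM and between 308 and 335 CPM in PPs. Because members of the list of 51 are counted in it, these counts are not independent of the choice of genes. Under Act D, 1 of 12 tested was called lower, *NEDD9*, against 4.63% of all genes tested. Of 12 NF-κB-induced genes, a list also chosen after the members were known, 8 were lower and 1 higher in hILOs without overlap. These counts stand against 37.2% and 24.4% of all genes. The list holds *CXCL1* and *PTX3*, which were lower by the choice of genes. Its sums overlapped in hILOs, from 662 to 769 TPM in WT and from 495 to 782 TPM in A5-KO.

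Markers of other cell types moved in both directions. Under Act D, limma called 5 of 8 hepatocyte markers higher (*AFP*, *ALB*, *APOA1*, *FGB* and *TTR*), 3 of 7 intestine markers higher (*FABP2*, *LGALS4* and *MUC13*) and 3 of 7 mesenchyme markers higher (*COL3A1*, *LUM* and *POSTN*), against 1.89% of all genes. The summed mesenchyme markers were higher in A5-KO PPs at 0 h (between 652 and 661 CPM against between 541 and 547 CPM in WT) and lower in A5-KO hILOs (between 162 and 169 TPM against between 261 and 268 TPM). Of the 5 measured in hILOs, however, 4 were higher and 1 lower in A5-KO without overlap, so the sum did not follow most of them. The summed endothelium markers stayed between 0.327 and 0.529 TPM in all 4 hILO libraries.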
